A study of Drosophila melanogaster with 4 samples.

Results

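Imaginal discs are the larval epithelial sacs from which the adult wings, legs, eyes and antennae of the fly form. Their patterning rests on secreted signals such as Wingless, Hedgehog and Dpp, and on transcription factors that turn position into cell fate. Notch is a transmembrane receptor. When a ligand on a neighbouring cell activates it, its intracellular domain is released, enters the nucleus and acts with the DNA-binding protein Su(H). At the border between dorsal and ventral cells of the wing disc, Notch activity is known to switch on wg and ct.

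The 8 genes described here are the disc patterning genes wg, hh, dpp, ct, hth, dac, h and sens, out of 10991 protein-coding genes on the X, 2L, 3L and 3R. They are given by name, with no rule on peaks, but the set was drawn up with earlier results of these data known. A peak was counted for a gene when it overlapped the gene's span with 10 kb on either side by at least 1 bp. By that rule the 8 genes held 17 of the 4198 peaks in the list, 0.589% of the 2884 peaks on these 4 arms.

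The peaks come from chromatin immunoprecipitation and sequencing (ChIP-seq) of *Drosophila melanogaster* larvae of stage L3, collected as they wandered before pupariation. The strain Notch-GFP has the genotype PBac{y[+]-attP-3B}VK00033 and a transgene of the Notch genomic coding region, tagged with green fluorescent protein (GFP), and the sex of the larvae is Unknown per the labels. The 2 libraries from anti-GFP precipitation and the 2 from input DNA share this strain and stage. The text of the protocol names y; bw cn sp as the flies cultivated, which is not the strain given in the labels. Chromatin from whole larvae mixes discs with fat body, gut, muscle, salivary gland and nervous system, so a peak cannot be placed in discs. No precipitation from larvae without the tag is among the samples analysed here.

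The libraries are represented by 1 deposited list, in which each peak has a first base, a last base and a score. The score is the authors', and which statistic of the peak caller it is was not given in the sources used here. It ran from 6.5 to 538.3 over the list, with a median of 26.1. No peak has a value per library, so no value below carries a replicate error and none was tested between groups. Read depth is unknown, and a gene without a peak is one where none was called.

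The list is on release 5 of the genome and the gene table on release 6, so gene spans were moved by 1 constant shift per arm. The shift was checked on the peaks themselves, by counting pairs of a peak centre and an end of a gene that came within 250 bp of each other. At the stated shift there were 215 such pairs on the X, against a median of 96 over other shifts up to 20 kb away. On 2L there were 253 pairs against a median of 156, and on 3R 219 against 113. On 3L the stated shift of 0 gave 126 pairs, and a shift of 6.92 kb gave 181, against a median of 89. Ends of genes were therefore placed with the shift found from the peaks, while the windows kept the stated shift. On 2L, which holds wg, dpp and dac, the shift found was -309.5 bp from the stated one. Without a block of tandem peaks on that arm it was 123.5 bp, so its sign rests on that block. Distances from an end are good to about 500 bp.

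**Figure D1:**
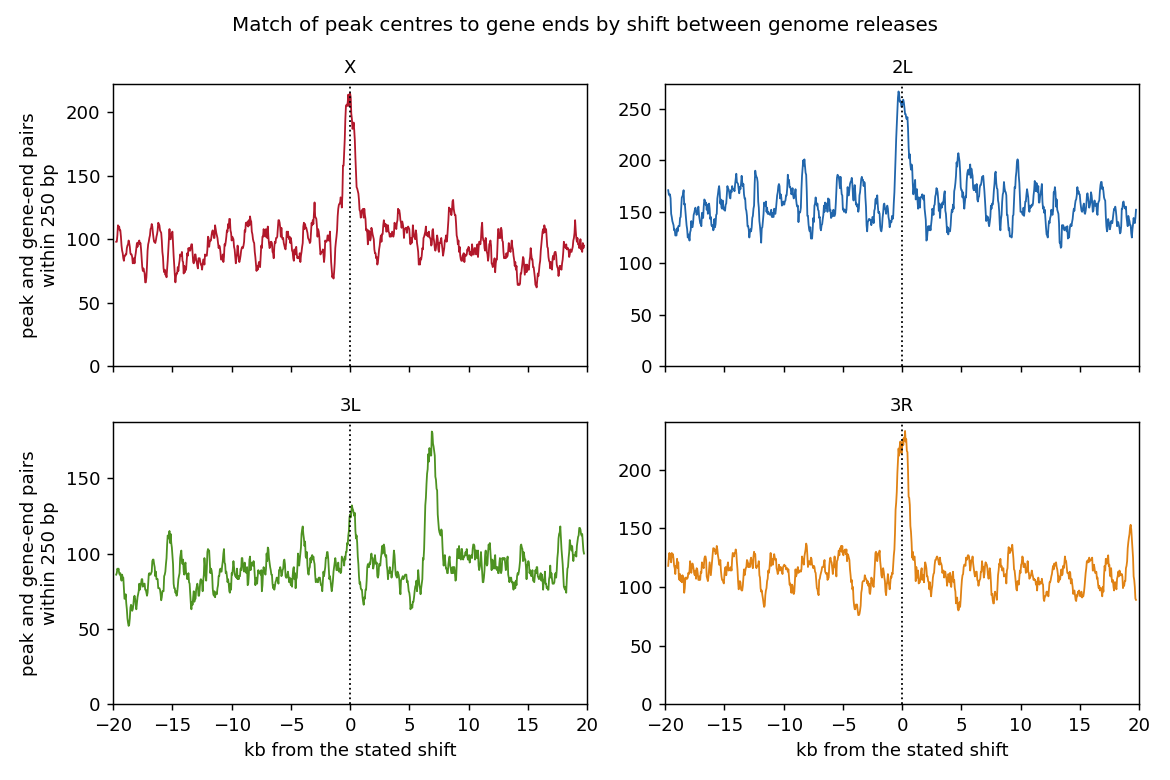
Number of pairs of a peak centre and a gene end within 250 bp (vertical axis) against the distance in kb from the stated shift (horizontal axis), for each of the 4 arms; the dotted line marks the stated shift. The X, 2L and 3R had their highest count within 0.31 kb of the line, and 3L had its highest at 6.92 kb with a lower rise at the line.

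All 8 genes had at least 1 peak in their window, against 55.1% of all protein-coding genes of the 4 arms and 65.3% of the 320 genes of like length described below. The number per gene was small, from 1 to 4. Together the windows held 3.82 peaks per 100 kb (exact Poisson 95% interval 2.23 to 6.12), against 2.95 (2.84 to 3.06) over the whole of these arms. The intervals overlap and cover counting error only. The median score of the 17 peaks was 26.2 (quartiles 15.7 and 58.9), against 25.2 (14.0 and 58.5) for the other 2867 peaks of the arms. Over the spans alone, with no flank, 12 peaks had a median of 45.6, and without dpp the 13 left had one of 40.7. Of the 17, 4 (23.5%) scored in the top 25% of the list, above 61.3, as did 24.1% of the other peaks. Their median width was 481 bp, against 494 bp for the others.

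Among the 3 ligands, wg and hh each had a strong peak beside an end of the gene and a weak second one, while dpp had a run of weaker peaks inside it. wg, which encodes the Wnt family ligand Wingless, spans 9.11 kb on 2L. Its stronger peak lay from 7306740 to 7307210 with a score of 83.4, rank 718 of 4198, and was centred 0.493 kb outside the low-coordinate end of the gene, or 0.184 kb with the stated shift, which puts the end under the peak. The weaker one lay inside the gene from 7315506 to 7315765, 0.939 kb from the other end, with a score of 8.42 and rank 4085. The 2 peaks thus sit near the 2 ends of the gene and differ widely in score. No other protein-coding gene reached into the wg window.

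hh encodes Hedgehog, the signal sent by cells of the posterior compartment, and spans 13.7 kb on 3R. Its main peak, from 18967476 to 18968129, had a score of 128.8 and rank 405. It was centred 0.431 kb beyond the high-coordinate end of the gene, or 0.174 kb with the stated shift, which again puts the end under the peak. A second peak followed from 18969155 to 18969400, 1.91 kb from the same end, with a score of 10.3. No peak centre lay inside hh with either shift. Exons, transcript starts and strand are not part of the gene table used here, so neither peak could be assigned to a promoter, an exon or an intron.

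dpp encodes a ligand of the BMP family that is made along the border between anterior and posterior compartments, and spans 31.5 kb on 2L. It had the most peaks of the 8 genes, 4, and none of them was strong. The weakest lay from 2428037 to 2428300, with a score of 9.0. Its centre was 0.513 kb outside the low-coordinate end, or 0.203 kb with the stated shift. The other 3 were inside the gene, at 2448454 to 2448880 with a score of 15.7, at 2450851 to 2451331 with 26.2 and at 2454433 to 2454989 with 36.8. These 3 lay 63.5%, 71.3% and 82.8% of the way along the span from its low-coordinate end. Scores thus increased along the gene toward its high-coordinate end, with ranks of 4017, 2985, 2092 and 1618.

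The transcription factor genes ct and hth, the longest of the 8, differed from the others in having no peak near either end. ct encodes the homeodomain protein Cut, made at the wing margin and in external sense organ cells, and spans 70.4 kb on the X. Its stronger peak lay from 7520939 to 7521619, 18.8 kb inside the gene, with a score of 74.2 and rank 834. A weaker peak lay 2.92 kb further in, from 7523999 to 7524389, with a score of 16.9. Both stood between 26.7% and 30.9% of the way along the span, and no peak was called over the rest of the gene.

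hth encodes Homothorax, a homeodomain partner of Extradenticle that marks proximal parts of the appendages. Its span of 132.0 kb on 3R is the longest of the 8 and held 3 peaks of similar score. One lay from 6361435 to 6361839 with a score of 58.9, 21.7% of the way along. The other two lay close together, from 6440035 to 6440574 (score 40.7) and from 6442272 to 6442880 (score 50.6). Between the first peak and this pair were 78.7 kb with no peak, the widest gap within any of the 8 windows. The distances to the nearer end were 28.6, 24.7 and 22.5 kb. hth had 1.97 peaks per 100 kb (0.407 to 5.77) and ct 2.21 (0.268 to 7.99), the lowest values of the 8, though their intervals overlap those of the other genes.

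dac, which encodes the nuclear protein Dachshund of the leg and eye, carried the strongest peak of the set. It lay from 16485631 to 16486888 on 2L, with a score of 168.2 and rank 223. Its centre was 0.048 kb from the high-coordinate end of the 19.5 kb span, or 0.262 kb with the stated shift. With either shift the peak covered that end. At 1258 bp it was also the widest of the 17. The second peak in the dac window, from 16491632 to 16492215 with a score of 17.3, lay 5.62 kb outside dac, or 5.93 kb with the stated shift. By the shift found, this second peak was 0.074 kb from an end of the neighbouring gene Tpr2, a distance good to about 500 bp. It was the 1 peak of the 17 that lay nearest to an end of another protein-coding gene.

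h and sens, the shortest of the 8, had 1 peak each, a little below the list's median score of 26.1 at h and weak at sens. h, listed as hry in the gene table, encodes Hairy, a bHLH repressor that limits where sensory bristles form, and spans 3.5 kb on 3L. Its peak lay from 8668391 to 8668929, 0.179 kb outside the low-coordinate end, with a score of 24.1 and rank 2223. sens encodes Senseless, a zinc finger protein of sensory organ precursor cells, and spans 4.9 kb on 3L. Its peak lay from 13394304 to 13394605, 0.249 kb beyond the high-coordinate end, with a score of 10.8 and rank 3728. Both distances rest on the shift found for 3L from the peaks. At the stated shift of 0 the same peaks fell in both windows but not within 500 bp of either end.

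**Figure D2:**
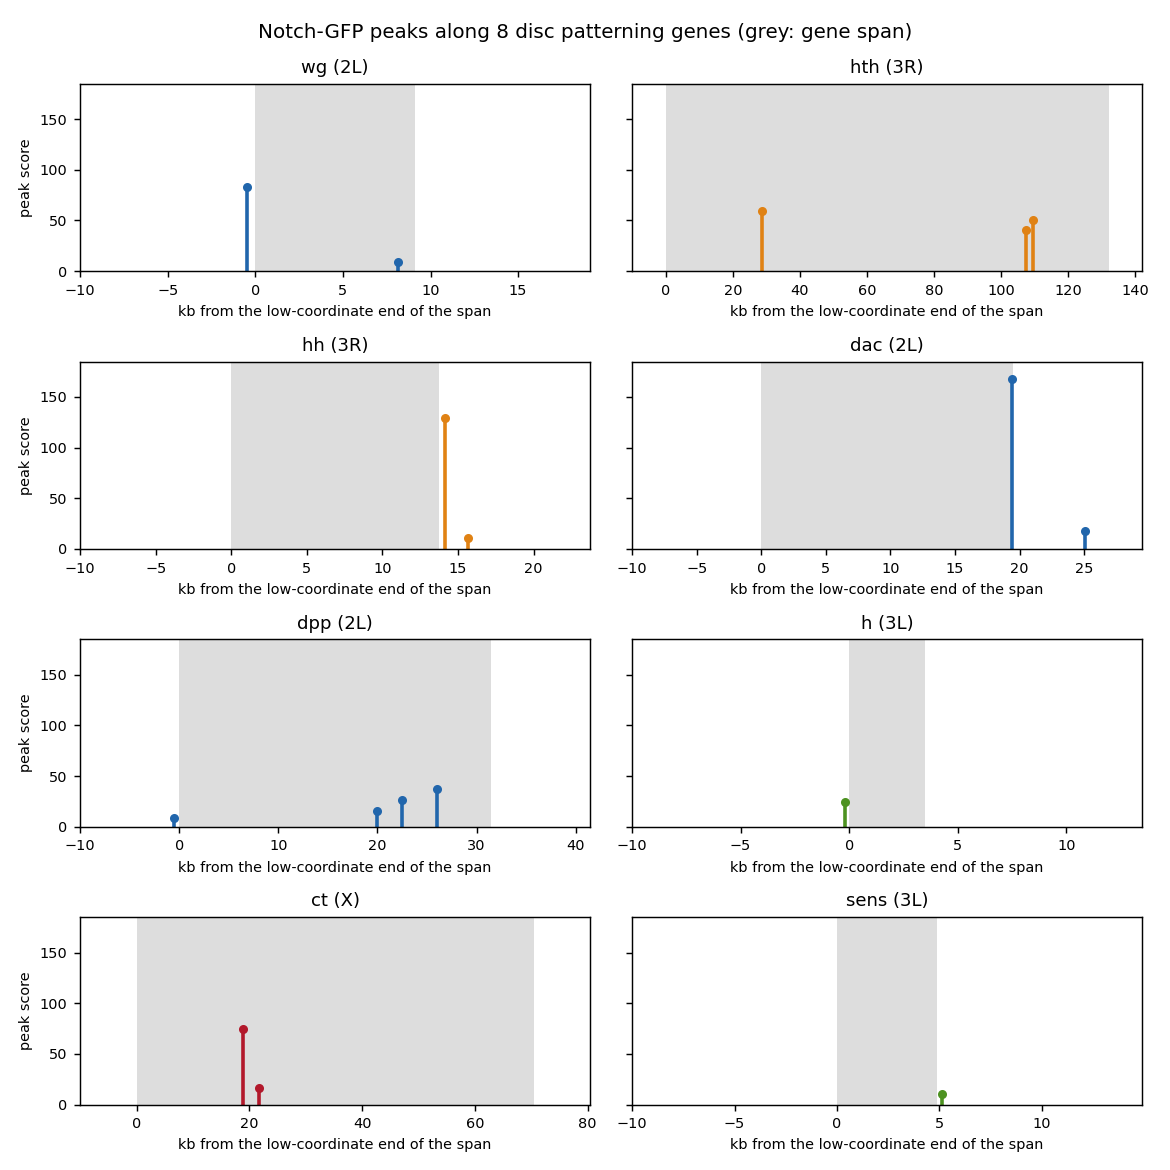
Peaks in the windows of the 8 genes, as the authors' score (vertical axis) against distance in kb from the low-coordinate end of the gene span (horizontal axis); the grey area is the span, each line and point is 1 peak, and colour stands for the arm. wg, hh and dac have their highest peak at an end of the span, ct and hth have peaks well inside it, and dpp has 4 peaks that score at most 36.8.

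With the stated shift, the nearest peaks outside the limit of 10 kb were a weak one 11.6 kb from h (score 11.3), a stronger one 15.0 kb from hh (from 18982618 to 18983199, score 71.1) and a weak one 17.8 kb from ct (from 7590648 to 7591322). With the shift found for 3L the one near h was 18.5 kb away. Up to 50 kb out there were 13 further peaks with the stated shift (with the found shift the 1 at sens lay beyond, at 53.6 kb), 4 of them each at ct and at dac and none at wg. On the dac side they included the strongest of the 13, with a score of 86.8, 43.4 kb below the gene.

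Each gene was set beside the 40 protein-coding genes of its arm nearest to it in length, leaving out those whose windows overlap its own. Lengths were matched closely except for the 2 longest genes, where the sets ran from 53.3 to 92.2 kb for ct and from 63.9 to 171.0 kb for hth. Longer genes had more peaks in general: the share with at least 1 went from 47.3% for spans under 2 kb to 70.2% for spans over 50 kb, so length has to be held alike. By number of peaks 6 of the 8 lay above the median of their own set, against 35.6% of the 320 genes of like length. With 50 kb on either side, or among the 2099 higher scored peaks, 3 of the 8 did. The share of the genes of like length is not given here for those settings. dpp stood highest, with 4 peaks where the median was 1. Of its 40 genes, 38 had fewer, 2 had as many and 0 had more. dac, with 2 peaks against a median of 1, had more than 30 of its 40, though 1 of its 2 peaks was the one beside Tpr2.

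The remaining genes stood closer to the middle. wg (2 peaks) had more than 26 of its 40, hh (2) more than 23, ct (2) more than 23 and hth (3, against a median of 2) more than 24. Per 100 kb of window, hth's 1.97 peaks lay below its set's median of 2.03, while ct's 2.21 lay above its set's 1.22. h and sens, with 1 peak each, equalled the median of 1, and 11 and 17 of their 40 genes had more. The upper quartile of the genes of like length was 2 peaks for wg and hh, 3.25 for ct and 4 for hth, so none of these 4 genes lay above it. Of the genes of like length, the ones with most peaks were br for ct (23 peaks), fru and pum for hth (8 each), red for hh (7), milt for dac (5) and SREBP for sens (5). In the other sets they were Liprin-alpha for wg (4), CG42748 and raw for dpp (4 each), and pav, Hr78 and CG6650 for h (3 each).

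**Figure D3:**
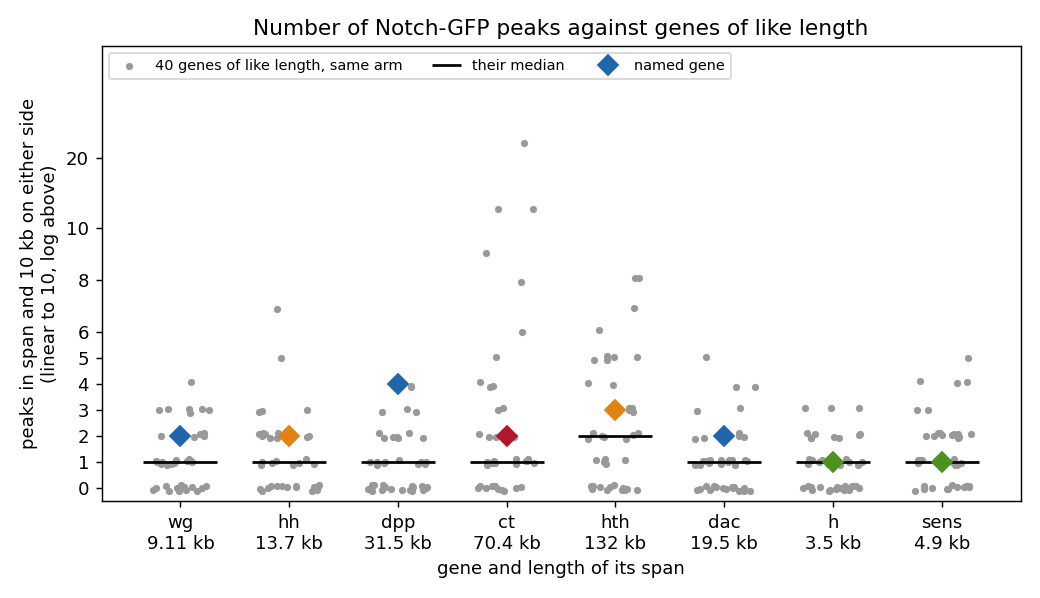
Number of peaks in the span and 10 kb on either side (vertical axis, linear up to 10 and logarithmic above) for each of the 8 genes (diamonds, coloured by arm) and for the 40 genes of like length on the same arm (grey points, spread sideways and slightly up and down for sight), with their median as a bar. dpp with 4 peaks is at the top of its set, h and sens are on the median of 1, and br with 23 is the highest grey point.

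By highest score the order was different. dac's 168.2 was above the highest score of 38 of its 40 genes, counting those without a peak as lower, and hh's 128.8 above 34 of 40. ct's 74.2 was above 29 of 40. wg's 83.4 was above 26 of 40, but below the median of 85.3 among its genes of like length that had a peak. dpp, first by number, was above only 27 of its 40 with 36.8, and among its genes of like length that had a peak the median highest score was 63.9. hth's 58.9 was above 21 of 40, h's 24.1 above 25 of 40 and sens's 10.8 above 15 of 40. In all, 3 of the 8 (dac, hh and ct) had a highest score above the median of those genes in their set that had a peak. Number and strength of peaks thus ranked the 8 genes differently.

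A peak with a base within 500 bp of an end of the gene was found at 6 of the 8 genes, wg, hh, dpp, dac, h and sens. The share was 18.2% of all protein-coding genes of the arms, and 30.0% of the genes of like length. Ends of the 8 genes were placed with the shift that put most peak centres of the arm near gene ends, their own included. The count of 6 is therefore partly fitted to the same peaks. The scores of these end peaks covered a wide range, from 9.0 at dpp to 168.2 at dac, and 3 of the 6 (dpp, h and sens) scored below the list's median of 26.1. With the shift as stated, h and sens dropped out and 4 of 8 genes were left, against 25.6% of the genes of like length. Requiring the peak to cover the end itself left 2 genes, dac and h, against 14.7%. With the stated shift on 2L and 3R and the found one on 3L it left 4, wg, hh, dac and h, against 16.9%, so at this distance the count rests on the shift.

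Some of the 8 genes also stood more alone than most genes of like length. Other protein-coding genes reaching into the window numbered 0 at wg, hth and h, 1 at ct, 2 at dac, 3 at dpp and sens and 4 at hh. The median was between 4 and 6 for the genes of like length. With 0 at wg, hth and h no gene could have fewer, and how many genes of like length also had 0 is not given here. Of 40 genes of like length, 13 had fewer than hh, 8 than dpp, 7 than sens, 4 than dac and 2 than ct. Of the 17 peaks, 16 (94.1%) had an end of the member as the nearest end of any protein-coding gene. For the genes of like length this held for 226 of 489 peaks (46.2%), where a peak in several windows was counted for each. Such sharing can lower that share, while each of the 17 was counted once. By this count, more of the peaks of the comparison genes lay nearer to a neighbour. How far this enters the comparison of numbers was not tested.

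Other genes of the same pathways had peaks in varying shares, to be read against the 55.1% of all protein-coding genes with a peak in the window and the 18.2% with one at an end. Of 8 Dpp pathway genes on these arms, 7 (87.5%) had a peak in the window and 6 at an end (75.0%). Their median span was 10.1 kb, and the shares for all genes of 10 to 20 kb, 68.2% and 32.2%, are the closer comparison. The highest scores at an end were 189.1 at brk, the repressor of Dpp target genes, 69.4 at Med, the co-Smad, and 53.9 at Mad, the Smad that Dpp signalling activates. The receptor genes tkv (32.8) and put (36.6) also had a peak at an end, as did the inhibitory Smad gene Dad (25.4). sog and tsg, whose products bind the ligand outside the cell, had none there.

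Of 15 Wingless pathway genes, 10 had a peak in the window (9 with the shift found for 3L, where Notum lost its 2) and 5 at an end (33.3%). Among all genes with spans of 10 to 20 kb, which take in this list's median of 14.3 kb, the shares were 68.2% and 32.2%. Highest at an end were sgg, which encodes the kinase GSK3 (207.5), arm, which encodes beta-catenin (98.1), and Apc of the destruction complex (42.5). The ligand genes Wnt4 and Wnt6, which neighbour wg on 2L, had no peak in their windows. Of 5 Hedgehog pathway genes, 3 (60.0%) had a peak in the window and 1 (20.0%) at an end, rdx (154.7), whose product targets the transcription factor Ci. Their median span was 4.59 kb, and the shares for all genes of 2 to 5 kb were 56.5% and 19.0%. smo, the gene of the signal transducer Smoothened, had 1 peak in its window (37.2) and none at an end.

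Of 36 further disc transcription factors on these arms, 26 (72.2%) had a peak in the window and 15 (41.7%) at an end. Their median span was 11.7 kb, and the shares for all genes of 10 to 20 kb, 68.2% and 32.2%, are the closer comparison. Highest at an end were dan (182.9) and nub (182.1), the POU-domain gene of the wing pouch, and mirr (97.1) of the Iroquois complex. ara and caup, the other Iroquois genes, had none in their windows, nor did al, Lim1, eya, gl, B-H1, noc, Doc2 or Doc3. With the shift found for 3L, Doc3 had 1 peak and Doc1 lost its only one. bi and sd, factors of the wing blade, had strong peaks in their windows (331.0 and 244.9) that were not at an end. Of 7 genes of EGF and JAK/STAT signalling, 5 (71.4%) had a peak in the window and 3 (42.9%) at an end. Their median span was 7.46 kb, and the shares for all genes of 5 to 10 kb were 67.4% and 30.6%. The 3 with a peak at an end were spi, the EGF receptor ligand (182.9), aos, its antagonist (146.1), and dome, the cytokine receptor (96.8).

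Of the genes typical of other larval tissues, none of 6 fat body genes, 6 salivary gland glue genes and 7 muscle genes had a peak within 500 bp of an end, while 2 of 6 neuronal genes had, Csp (40.5) and elav (16.3). In the wider window 3 fat body, 4 salivary gland, 3 muscle and 3 neuronal genes had a peak. Of the 4 glue genes, Sgs3, Sgs7 and Sgs8 shared 1 peak (164.5), and with the shift found from the peaks only 2 glue genes and 2 fat body genes had one. These lists are short, and the fat body and glue genes are also short genes, with median spans of 2.63 and 0.852 kb. Of all genes with spans under 2 kb, 47.3% had a peak in the window and 11.4% at an end, and of those of 2 to 5 kb 56.5% and 19.0%. Median spans were 9.11 kb for the muscle genes and 20.8 kb for the neuronal genes. The shares were 67.4% and 30.6% for all genes of 5 to 10 kb, and 69.1% and 27.9% for those of 20 to 50 kb. No test was made of any list.

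**Figure D4:**
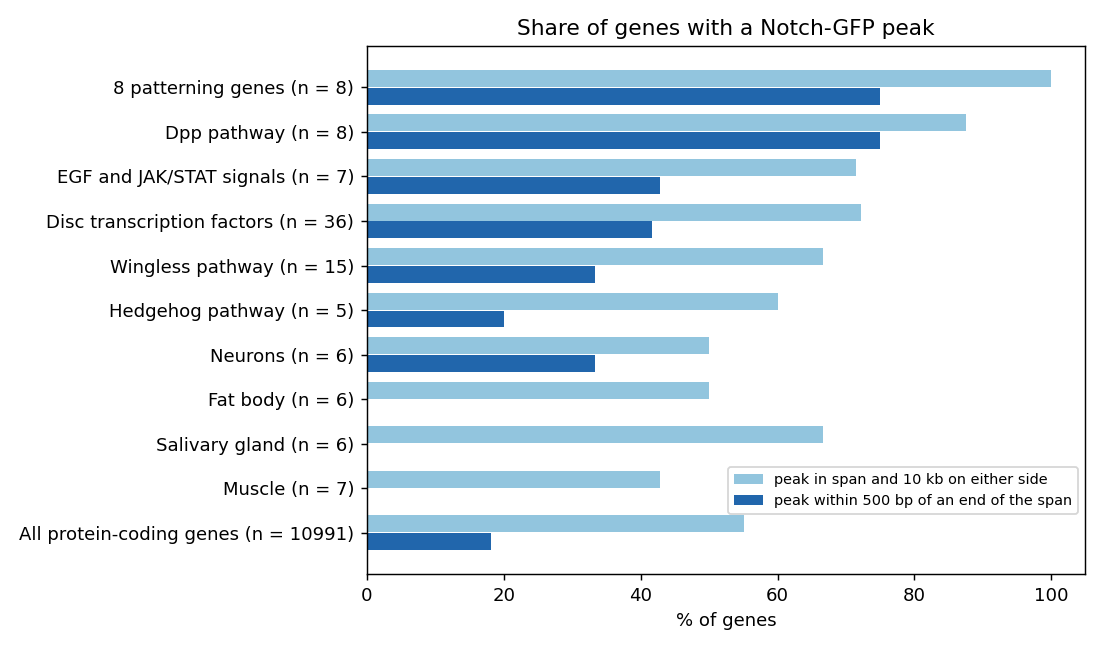
Share of genes (horizontal axis, %) with a peak in the span and 10 kb on either side (light bars) and with a peak within 500 bp of an end of the span (dark bars), by list, with the number of genes on the X, 2L, 3L and 3R. The dark bar is at 75.0% for the 8 patterning genes and for the Dpp pathway, at 18.2% for all protein-coding genes, and at 0 for the fat body, salivary gland and muscle lists.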

How the data were processed

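ChIP-seq of whole larvae was represented by 1 peak list. Each peak has a score that the authors deposited, with coordinates on FlyBase release 5 and MACS as its source per the file headers. The submitters' processing notes name BWA, MACS2, CASAVA 1.7.0.2 and CASAVA 1.7.0.3. Settings, thresholds, pooling of replicates and the use of input were not given in the sources used here. Genes came from a RefSeq table of release 6 with spans but no strand, and were moved to release 5 by the stated shift of each arm. The planned results at gene starts were made at both ends of the span, with a shift registered from peaks within 20 kb. That shift was the one of the surrounding 2 Mb where its count was at least 1.5 times the next, and otherwise the one of the arm, which applied to all 8 genes. On 3L the first part of the arm matched better at 0, so some comparison genes there may be misplaced. Genes on 2R and chromosome 4, and the planned promoter motifs, were not analysed here. Poisson intervals treat peaks as independent. The 8 genes and the lists were chosen with earlier results of these data known. The text names the 8 genes, the gene of like length with most peaks, the gene with the nearest end to each peak, and the 3 list genes with the highest score at an end; other list genes were named after their values were seen. The scripts were tested on simulated peaks with planted shifts. Alternatives were other flanks, the 2099 higher scored peaks, merging within 1 kb, other shifts, sets of other sizes, other distances to an end and leaving out each gene. Python 3.11.15, numpy 2.4.6, pandas 2.3.3, scipy 1.17.1 and matplotlib 3.10.9 were used.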

Additional observations from a re-analysis of the deposited data

How the results depend on the processing

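Of 49 alternative values, 43 stayed within 1.5 times the number reported or within the 95% interval of the median score (15.7 to 58.9), and 6 did not. With a flank of 50 kb there were 30 peaks, and 3 of the 8 genes lay above the median number of genes of like length. Among the 2099 higher scored peaks of the list there were 9, with 3 genes above that median. A peak at an end was left at 3 genes, against 11.3% of all protein-coding genes and 18.1% of the genes of like length. Asking for a peak over the end itself left 2 genes, against 14.7% of the genes of like length. Leaving out any 1 gene, an alternative added after the data were seen, gave 13 to 16 peaks and a median score from 20.7 to 40.7. As no gene held more than 4 of the 17 peaks, these counts could not leave the range of 1.5 times. The interval of the median score is wide, and took in 45.6 with no flank and 40.7 without dpp. The 43 values that stayed are therefore a weak check. Of the 6 that moved, the numbers of peaks and of genes with a peak at an end could move only in the direction seen. A wider flank can only add peaks, and a shorter list or distance to an end can only remove them. Placing ends with the stated shift on the X, 2L and 3R and the found shift on 3L, without a block of tandem peaks on 2L, or from the surrounding 6 Mb gave 6 genes in each case, and these were also added later. No paired analysis was possible because peaks have no value for any single library, and no replicate could be left out. Depth is unknown, so peaks that deeper sequencing would add were not estimated.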
